A study of Homo sapiens with 8 samples.

Results

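Genes for the synthesis of serine, asparagine and proline, for the folate-linked transfer of one-carbon units and for the methionine cycle were compared between HepG2 cells grown in 2D and in 3D culture. The 31 genes form a list grouped by known enzymatic roles and chosen with earlier results of these data known. A gene was tested where at least 10 counts were present in at least 2 of the 8 libraries. This filter retained 30 of the 31, among 13943 genes tested, and removed FOLR1. HepG2 is an established human line derived from a hepatocellular carcinoma, and a single line of unmodified (WT) genotype was used throughout. Cells were cultured for 8 days on conventional flat culture-ware (2D-primed, 4 libraries) or on Alvetex Strata, a porous polystyrene scaffold (3D-primed, 4 libraries), and were freed with trypsin before poly(A) RNA was sequenced. Both groups received minimal essential medium with non-essential amino acids, glutamine and foetal bovine serum. For the 3D cultures the labels also state a regular change of medium, whereas the feeding of the 2D cultures is not described there. Seeding differed too, with more cells put on the scaffold than on flat culture-ware in wells of the same format. The part of seeding in the results below was not tested.

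Serine is made from a glycolytic intermediate in 3 steps and passes a carbon to tetrahydrofolate when it is split to glycine. The carbon is then carried through parallel sets of folate enzymes in mitochondria and in the cytosol, and serves the synthesis of purines, thymidylate and methionine. Methionine gives rise to S-adenosylmethionine, the methyl donor of the cell, and the homocysteine left after methyl transfer is either remethylated or drained to cysteine by trans-sulfuration. The liver is the main site of methionine breakdown in the body, and several of these enzymes, such as MAT1A, BHMT and GNMT, are typical of hepatocytes.

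Of the 30 genes, 18 were higher and 5 lower in 3D-primed cells, and 7 did not pass the test (edgeR quasi-likelihood test, Benjamini-Hochberg adjusted p below 0.05). Among all genes tested, 32.4% were called higher, 31.6% lower and 63.9% in either direction, so that a call on its own was common in this comparison. Each branch below holds few genes, so its counts are to be read beside these shares. Expression values are given as CPM, the counts of a gene per 1000000 counts with library sizes adjusted by the TMM method, and errors are SD over 4 libraries unless stated. In 22 of the 30 genes the CPM of the groups did not overlap, against 59.8% of all genes. At least 2-fold higher expression in 3D-primed cells was called for 10 of the 30 genes, against 4.86% of all genes, and at least 2-fold lower expression for 0, against 7.01%. The median log2 fold change was 0.51 for the list and 0.01 for all genes tested. Because the list was chosen with earlier results of these data known, these contrasts with all genes are descriptive only. The labels do not say whether the replicates were separate cultures started independently, so the p-values measure the spread between these libraries only. Because RNA of whole cultures was measured, fewer expressing cells and less RNA per cell cannot be told apart.

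**Figure D1:**
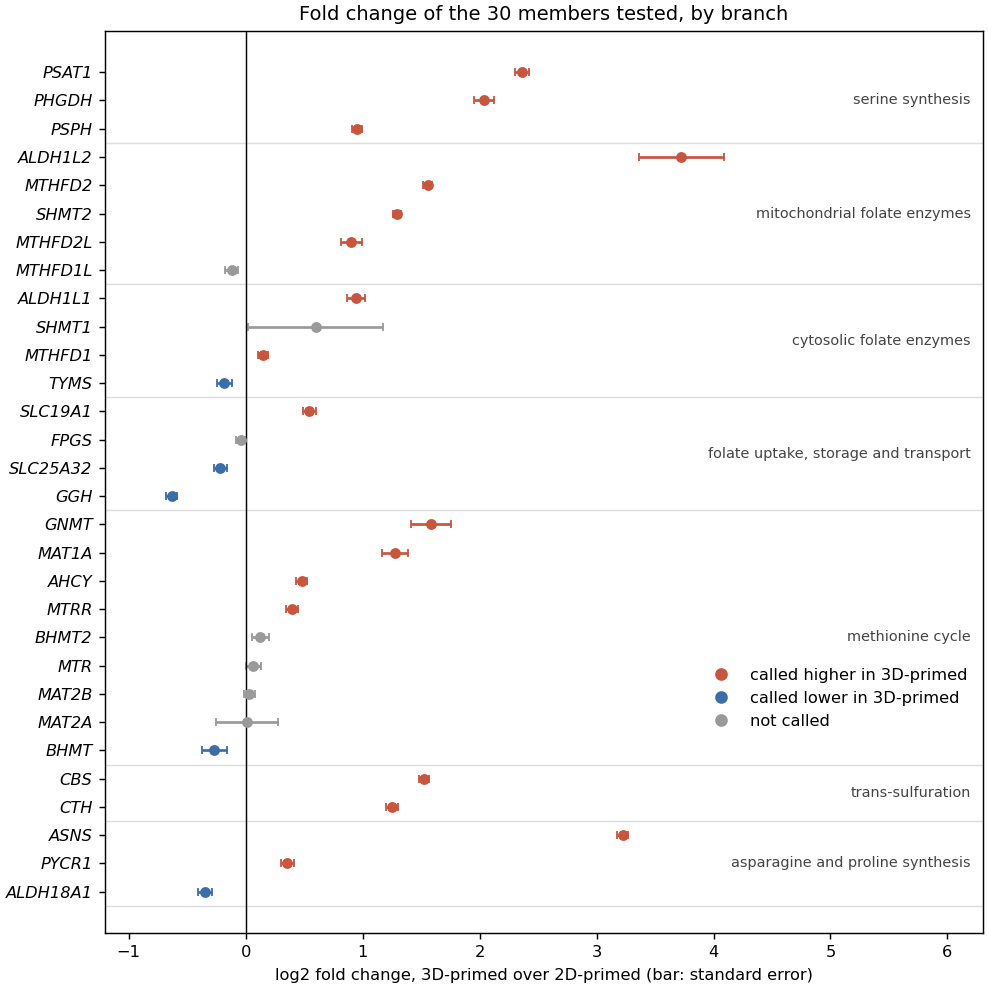
Log2 fold change (3D-primed over 2D-primed) of the 30 genes tested, grouped by branch of the pathway, with bars giving the standard error and colour the edgeR call. The values run from -0.63 for GGH to 3.72 for ALDH1L2, the serine and trans-sulfuration branches lie wholly to the right of 0, and the folate transport branch lies on both sides of it.

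The libraries held 21599630 to 27844077 counts. Transcripts of the mitochondrial genome took 1.40% to 1.81% of counts in 2D-primed and 2.47% to 2.98% in 3D-primed libraries, and the part of this difference in the results below was not tested. All 7 hepatocyte markers examined were present, with a summed level of 59230 to 64840 CPM in 2D-primed and 83280 to 94040 CPM in 3D-primed libraries. They did not all move the same way: ALB, AFP, APOA1, TTR and HNF4A were called higher in 3D-primed cells, and APOB and SERPINA1 lower. The 5 fibroblast and stellate markers summed to 10.99 to 12.2 CPM and 15.1 to 18.1 CPM, the 4 endothelial markers to 5.58 to 7.72 CPM and 4.16 to 5.70 CPM, and the 5 blood markers, mostly LYZ, to 2194 to 2286 CPM and 2421 to 3027 CPM. Members of these lists moved in both directions. PDGFRB, VWF, CD14 and LYZ were called higher in 3D-primed cells, COL1A1, CDH5 and CD68 lower, and PECAM1 was not called. COL3A1, DCN, LUM, KDR, PTPRC and HBB had at most 2 counts in any library.

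All 3 enzymes of serine synthesis rose in 3D-primed cells, by 1.93- to 5.15-fold. PHGDH (ENSG00000092621, GRCh38 chr1:119648411-119744218), which oxidises 3-phosphoglycerate in the committing step, measured 64.1, 70.1, 53.3 and 65.1 CPM in the 2D-primed libraries and 263, 254, 237 and 281 CPM in the 3D-primed libraries. The lowest 3D-primed library was thus far above the highest 2D-primed one. The group means were 63.2 ± 7.09 and 259 ± 18.4 CPM (SD, n = 4 each), a log2 fold change of 2.04 (SE 0.083, edgeR adjusted p = 4.3e-08). PSAT1 (ENSG00000135069, chr9:78297125-78330093), the aminotransferase of the pathway, rose further, from 81.5, 76.0, 68.4 and 79.2 CPM to 402, 395, 368 and 406 CPM. Its groups were equally well separated, with a log2 fold change of 2.37 (SE 0.060, edgeR adjusted p = 4.7e-09). PSPH, the phosphatase that releases free serine (chr7:56011051-56051604), showed the smallest change of the branch, from 47.4 ± 2.00 to 91.8 ± 2.17 CPM (log2 fold change 0.95, SE 0.041, edgeR adjusted p = 5.2e-08). Replicate 3 was the lowest library of its group for PHGDH and PSAT1 in both culture types.

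**Figure D2:**
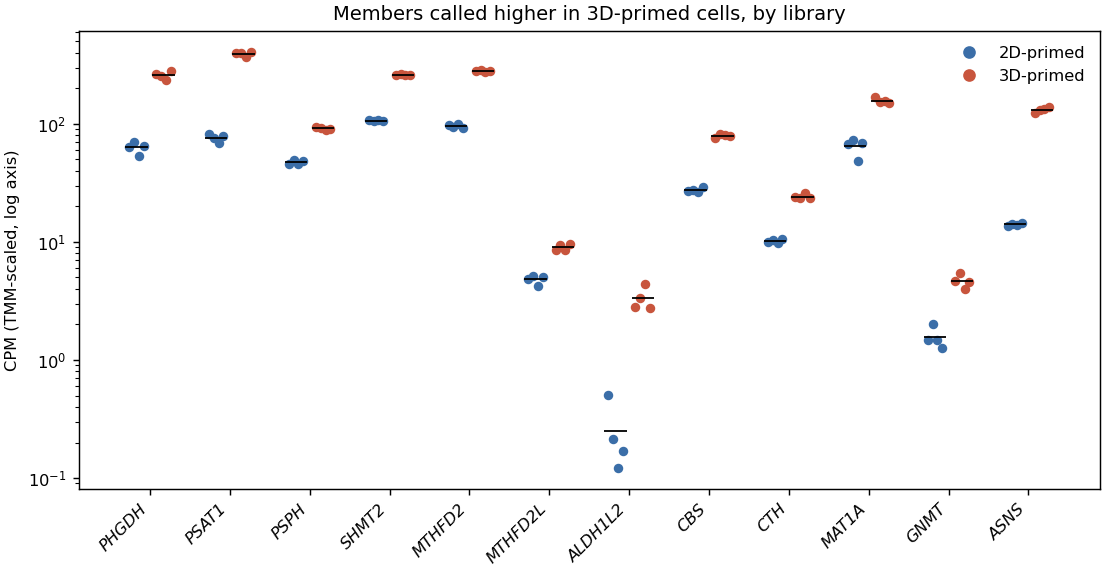
CPM on a log axis of 12 genes called higher in 3D-primed cells, with a point for each library and a line for each group mean. All 12 genes show no overlap between 2D-primed and 3D-primed libraries, with ASNS at 13.7 to 14.6 CPM and 125 to 140 CPM. The 12 were picked from the 18 genes already called higher, and 59.8% of all genes tested show no overlap.

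Within mitochondria, 4 of the 5 folate enzymes rose and MTHFD1L did not pass the test. SHMT2 (ENSG00000182199, chr12:57229573-57234935), which splits serine to glycine, measured 108, 107, 107 and 105 CPM in 2D-primed and 262, 265, 258 and 262 CPM in 3D-primed libraries. The groups were far apart, with an SD of 1.26 and 2.76 CPM, and the log2 fold change was 1.29 (SE 0.032, edgeR adjusted p = 4.7e-09). MTHFD2 (ENSG00000065911, chr2:74186172-74217565), the dehydrogenase and cyclohydrolase that oxidises the one-carbon unit, rose from 97.9, 93.3, 99.5 and 91.7 CPM to 278, 288, 276 and 282 CPM. No 2D-primed library came near the 3D-primed range, and the log2 fold change was 1.56 (SE 0.039, edgeR adjusted p = 4.7e-09). Its relative MTHFD2L was expressed at a much lower level and rose from 4.82 ± 0.413 to 9.02 ± 0.554 CPM (log2 fold change 0.90, edgeR adjusted p = 1.0e-05).

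ALDH1L2 (chr12:105019784-105107643), which oxidises 10-formyltetrahydrofolate in mitochondria, was barely detected in 2D-primed cells. It had 3 to 11 counts per library there and 70 to 124 in 3D-primed libraries. The summed counts of 23 and 344 gave a ratio of 13.7 after scaling for depth, with an exact 95% interval of 8.95 to 21.8 that covers counting error only. The fitted log2 fold change was 3.72 (SE 0.36, edgeR adjusted p = 8.6e-06). Exons of ALDH1L2 overlap those of NOPCHAP1 and WASHC4 on the opposite strand. The libraries were made with a directional kit, but whether strand was used in counting is not stated. Any part of reads from such partners in these values was not tested. In all, 12 of the genes have a named partner of this kind in the files, the others being SHMT2, MTHFD2, MTHFD1, TYMS, SHMT1, SLC19A1, SLC25A32, MTRR, BHMT, MAT2A and GNMT. MTHFD1L, which releases the carbon as formate for export to the cytosol, stood at 66.5, 70.2, 77.2 and 68.1 CPM in 2D-primed and 60.1, 69.4, 66.3 and 63.9 CPM in 3D-primed libraries. These ranges overlapped, and the log2 fold change of -0.12 (SE 0.059) missed the threshold (edgeR adjusted p = 0.097), although it passed without 3D-primed replicate 2 (adjusted p = 0.044).

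In the cytosol, 2 of the 4 folate enzymes rose, 1 fell and SHMT1 did not pass the test. MTHFD1, which carries out in one protein the steps that mitochondria divide between MTHFD2 and MTHFD1L, measured 116, 112, 106 and 111 CPM and then 123, 130, 119 and 120 CPM. The groups were separated by a narrow margin, and the log2 fold change of 0.15 (SE 0.043, edgeR adjusted p = 0.012) was lost without 3D-primed replicate 2 (adjusted p = 0.053). ALDH1L1, the cytosolic counterpart of ALDH1L2, rose from 25.1, 25.1, 20.3 and 24.5 CPM to 48.0, 44.1, 48.6 and 41.5 CPM, with no overlap (log2 fold change 0.94, edgeR adjusted p = 2.6e-06). TYMS, which uses a folate carbon to make thymidylate for DNA synthesis, measured 118, 122, 126 and 128 CPM in 2D-primed and 110, 117, 94.0 and 116 CPM in 3D-primed libraries. The groups did not overlap but lay close together, and the log2 fold change of -0.18 (edgeR adjusted p = 0.036) was lost with upper-quartile scaling (adjusted p = 0.10), with total counts (0.081) and without 2D-primed replicate 2, 3 or 4. Markers of dividing cells summed to 948 to 1007 CPM in 2D-primed and 842 to 971 CPM in 3D-primed libraries, with PCNA, MCM2 and MCM5 called higher, MKI67, TOP2A and TK1 called lower, and RRM2 and CCNB1 not called. Their part in the TYMS result was not tested. TYMS also shares exonic positions with ENOSF1 on the opposite strand.

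SHMT1, the cytosolic serine hydroxymethyltransferase, varied more between replicates than any other well-expressed gene of the list. It measured 28.6, 11.7, 6.84 and 8.19 CPM in 2D-primed and 33.7, 7.66, 8.32 and 33.5 CPM in 3D-primed libraries. High and low libraries occurred in both groups, and the log2 fold change of 0.60 (SE 0.58, edgeR adjusted p = 0.39) did not exceed this spread. Exons of SMCR8, with a mean of 40.5 CPM, overlap SHMT1 on the opposite strand. A search of all identifiers, made after these values were seen, found ENSG00000284320, which the annotation used here does not name. This identifier had 0 counts in the 3 libraries where SHMT1 was highest and 18.5 to 25.5 CPM in the other 5. The sum of both was much steadier, at 28.6, 30.5, 25.3 and 29.8 CPM in 2D-primed and 33.7, 33.1, 29.0 and 33.5 CPM in 3D-primed libraries. With the sum in the fit the log2 fold change was 0.18 (SE 0.069, edgeR adjusted p = 0.043), the groups still overlapped, and the p is no independent support because the sum was chosen from these values.

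**Figure D3:**
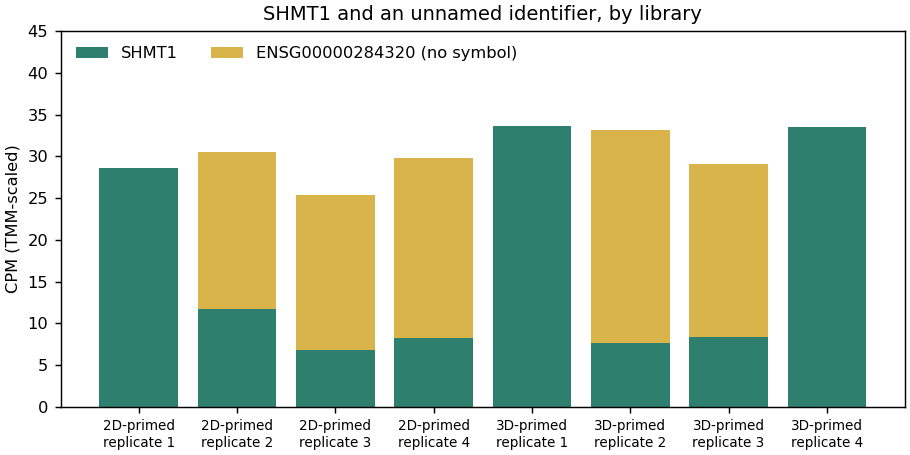
Stacked bars of the CPM of SHMT1 and of the unnamed identifier ENSG00000284320 in each of the 8 libraries, the full height being their sum. SHMT1 lies at 28.6 to 33.7 CPM in the 3 libraries where the other identifier is at 0 and at 6.84 to 11.7 CPM in the other 5, whereas the sum stays between 25.3 and 33.7 CPM in all 8.

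The balance of mitochondrial and cytosolic isozymes was compared within each library as a log2 ratio of counts, in which library scaling cancels. Together with ratios within the methionine and trans-sulfuration branches, 8 pairs were compared by two-sided exact permutation tests, for which 4 against 4 libraries allow no p below 0.029. MTHFD2 over MTHFD1 moved from -0.24, -0.26, -0.10 and -0.27 in 2D-primed to 1.18, 1.14, 1.22 and 1.23 in 3D-primed libraries. The mitochondrial transcript thus passed from slightly fewer counts than its cytosolic counterpart to more than 2 counts for each of the latter, a 2.66-fold change of the ratio (exact p = 0.029, adjusted over the pairs 0.038). ALDH1L2 over ALDH1L1 rose from a mean of -6.76 ± 0.782 to -3.79 ± 0.278 with the same p, a 7.85-fold change that rests on 3 to 11 ALDH1L2 counts in each 2D-primed library. MTHFD1L over MTHFD1 moved the opposite way, from -0.66 ± 0.141 to -0.92 ± 0.0803, again without overlap (exact p = 0.029, adjusted 0.038). Mitochondrial enzymes therefore did not move together against cytosolic ones. The ratio of MTHFD2 to MTHFD2L rose from 4.31 ± 0.178 to 4.96 ± 0.0687 (exact p = 0.029, adjusted 0.038). SHMT2 over SHMT1 ranged from 1.92 to 3.97 in 2D-primed and from 2.96 to 5.11 in 3D-primed libraries, and this overlapping difference did not pass (exact p = 0.29, adjusted 0.29). Taken over the sum of SHMT1 and the unnamed identifier, the same ratio was 1.81 to 2.08 and 2.96 to 3.15, given here without a test because the sum was chosen after its values were seen.

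**Figure D4:**
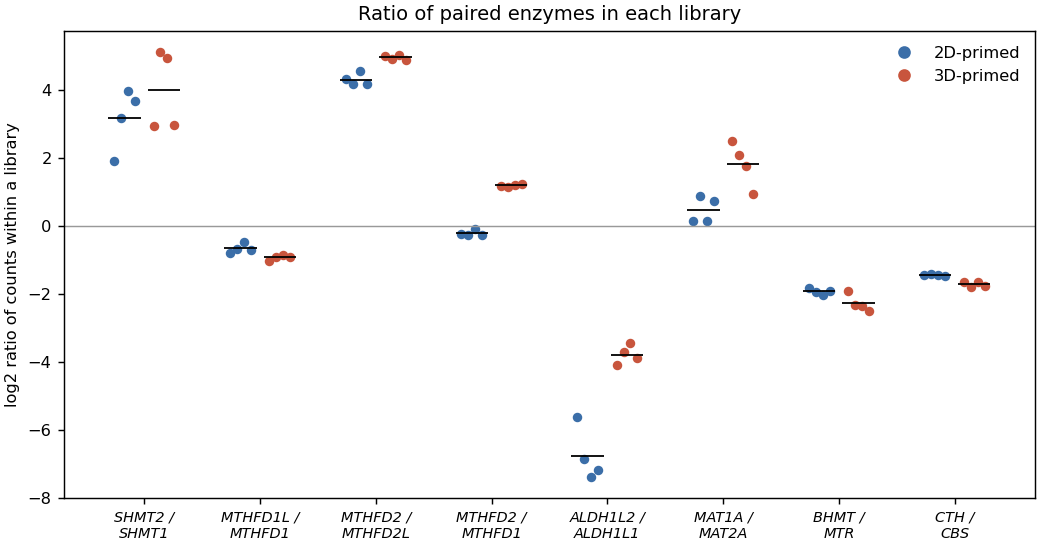
Log2 count ratio of 8 gene pairs in each library, with group means. MTHFD2 over MTHFD1 lies at -0.27 to -0.10 in 2D-primed and at 1.14 to 1.23 in 3D-primed libraries, while the ranges of SHMT2 over SHMT1 and of BHMT over MTR overlap.

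To compare levels between genes, mean CPM was divided by the length of the canonical transcript in kb, although the isoform expressed in these cells may differ. On this scale the mitochondrial levels in 2D-primed cells followed the order SHMT2 (49.5 CPM per kb), MTHFD2 (21.7), MTHFD1L (20.4), MTHFD2L (2.05) and ALDH1L2 (0.034). The levels of MTHFD2 and MTHFD1L could not be ordered beyond the spread between 2D-primed libraries. In 3D-primed cells the order was the same, at 121, 63.8, 18.8, 3.83 and 0.45 CPM per kb, with MTHFD2 now clearly above MTHFD1L. The cytosolic MTHFD1 changed from 35.3 to 39.0 CPM per kb and ALDH1L1 from 7.75 to 14.9 CPM per kb.

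Genes for folate uptake and storage moved in both directions, and none changed by 2-fold. SLC19A1, the reduced folate carrier of the plasma membrane, rose from 36.0 ± 2.57 to 52.4 ± 2.62 CPM (log2 fold change 0.54, edgeR adjusted p = 1.5e-05), and its exons overlap those of COL18A1 on the opposite strand. SLC25A32, which carries folate into mitochondria, fell from 24.6 ± 1.50 to 21.2 ± 0.729 CPM (log2 fold change -0.21, edgeR adjusted p = 0.0062), and overlaps DCAF13 on the opposite strand (mean 42.6 CPM). The enzymes that add and remove the polyglutamate tail by which folates are kept in cells differed from each other. FPGS, which adds it, measured 34.7 ± 0.575 and 33.7 ± 1.34 CPM and did not pass the test (log2 fold change -0.04, edgeR adjusted p = 0.41). GGH, which removes it, fell from 114 ± 4.46 to 73.4 ± 3.93 CPM, so that it was 1.55-fold higher in 2D-primed cells (log2 fold change -0.63, edgeR adjusted p = 1.6e-06). The folate receptor gene FOLR1 had at most 1 count in any library and was not tested.

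Of the 9 genes of the methionine cycle, 4 rose, 1 fell and 4 did not pass the test, where 63.9% of all genes tested were called in either direction. MAT1A (chr10:80271820-80289658), the methionine adenosyltransferase of differentiated hepatocytes, showed 67.9, 72.7, 48.6 and 69.3 CPM in 2D-primed and 169, 153, 155 and 150 CPM in 3D-primed libraries. The groups were far apart, with 2D-primed replicate 3 the lowest library, and the log2 fold change was 1.28 (SE 0.11, edgeR adjusted p = 3.2e-06). MAT2A, the form found in most other tissues and in dividing liver cells, measured 61.4, 39.4, 43.6 and 42.0 CPM in 2D-primed and 29.6, 35.6, 45.4 and 77.3 CPM in 3D-primed libraries. Both the lowest and the highest value came from 3D-primed cells, and the log2 fold change of 0.01 (SE 0.27, edgeR adjusted p = 0.97) carried a wide error. Opposite-strand exons of GGCX overlap MAT2A. Within libraries, the log2 ratio of MAT1A to MAT2A counts was 0.15, 0.88, 0.15 and 0.72 in 2D-primed and 2.51, 2.10, 1.77 and 0.96 in 3D-primed libraries, a 2.57-fold change of the mean ratio (exact permutation test, p = 0.029, adjusted 0.038). Only a small gap lay between the highest 2D-primed and the lowest 3D-primed ratio. MAT2B, the regulatory partner of MAT2A, measured 36.5 ± 1.69 and 37.3 ± 1.65 CPM (log2 fold change 0.03, edgeR adjusted p = 0.57).

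GNMT, which uses up S-adenosylmethionine by methylating glycine and is abundant in liver, rose from 1.47, 2.03, 1.47 and 1.27 CPM to 4.68, 5.45, 4.01 and 4.61 CPM. It stayed a lowly expressed gene in both groups, and the groups did not overlap (3.00-fold, log2 fold change 1.59, SE 0.17, edgeR adjusted p = 1.7e-05). Its exons overlap those of PEX6 on the opposite strand, which averaged 18.4 CPM. AHCY, which clears S-adenosylhomocysteine, was the most highly expressed gene of the list per kb of transcript, at 174 CPM per kb in 2D-primed and 242 CPM per kb in 3D-primed cells. Its total level rose from 373 ± 14.9 to 521 ± 27.3 CPM (log2 fold change 0.48, edgeR adjusted p = 1.0e-05). The remethylation of homocysteine showed smaller shifts. MTRR, which keeps methionine synthase active, rose from 24.2 ± 0.847 to 31.9 ± 1.88 CPM (log2 fold change 0.40, edgeR adjusted p = 8.1e-05), while methionine synthase itself, MTR, measured 63.8 ± 2.39 and 66.9 ± 5.76 CPM (log2 fold change 0.07, adjusted p = 0.35). BHMT, which remethylates homocysteine with betaine, measured 17.1, 17.2, 15.3 and 17.6 CPM in 2D-primed and 16.5, 13.8, 14.4 and 11.04 CPM in 3D-primed libraries. Its groups overlapped and its log2 fold change of -0.27 lay at the edge of the threshold (edgeR adjusted p = 0.049). The call was lost in 10 of the 15 alternatives, among them those without 2D-primed replicate 1, 2 or 4 or 3D-primed replicate 2, 3 or 4 (adjusted p = 0.060 to 0.11). BHMT2 measured 18.9 ± 0.894 and 20.7 ± 2.04 CPM and did not pass (log2 fold change 0.13, edgeR adjusted p = 0.16), but was called without 3D-primed replicate 4 (adjusted p = 0.036). The log2 ratio of BHMT to MTR counts fell by 0.35 with overlapping groups (exact permutation test, p = 0.11, adjusted 0.13).

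Both enzymes of trans-sulfuration rose by more than 2-fold. CBS (chr21:43053191-43076943), which joins homocysteine to serine, measured 26.9, 27.7, 26.3 and 29.2 CPM in 2D-primed and 75.4, 81.9, 80.2 and 79.3 CPM in 3D-primed libraries. No values fell between the groups, and the log2 fold change was 1.52 (SE 0.045, edgeR adjusted p = 7.9e-09). RefSeq lists a near-identical copy of CBS on the same chromosome, so the division of reads between the copies is uncertain. CTH (chr1:70411218-70439851), which releases cysteine from the product, rose from 9.90, 10.4, 9.77 and 10.5 CPM to 23.8, 23.6, 25.7 and 23.5 CPM. Here too the groups were clearly apart (log2 fold change 1.25, edgeR adjusted p = 5.8e-08). The log2 ratio of CTH to CBS counts moved from -1.44 ± 0.0251 to -1.71 ± 0.0738, that is, CTH rose less than CBS within libraries (exact permutation test, p = 0.029, adjusted 0.038).

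ASNS (ENSG00000070669, chr7:97851677-97872542), the asparagine synthetase, showed the smallest adjusted p of the 30 genes. It measured 13.7, 14.3, 13.9 and 14.6 CPM in 2D-primed and 125, 130, 133 and 140 CPM in 3D-primed libraries. Values within a group were close together and the groups far apart, with means of 14.1 ± 0.370 and 132 ± 6.33 CPM, a 9.35-fold increase (log2 fold change 3.22, SE 0.049, edgeR adjusted p = 1.8e-10). The log2 fold change stayed between 3.20 and 3.25 when any one library was left out. Per kb of transcript, ASNS went from 5.92 to 55.3 CPM per kb. The proline branch was divided. PYCR1, which completes proline synthesis in mitochondria, rose from 213, 231, 209 and 211 CPM to 302, 270, 259 and 275 CPM (log2 fold change 0.36, edgeR adjusted p = 2.1e-04). ALDH18A1, which carries out the committing step from glutamate, fell from 366, 389, 374 and 391 CPM to 316, 291, 264 and 323 CPM (log2 fold change -0.35, edgeR adjusted p = 5.8e-04). Neither gene showed overlap between the groups, so the first and last steps of the same route moved in opposite directions.

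The ASNS promoter is known for an element through which amino acid shortage and other stresses raise its transcription by way of ATF4 and C/EBP factors. The 8-base pattern TGATGNAA, the core of such composite elements, was searched on both strands in RefSeq promoters of GRCh38.p14, from 250 bases before to 50 bases after each gene start. It was found in 2 of the 23 genes of the list that had a promoter entry (8.7%) and in 4.46% of the 27305 genes with at least 1 entry, so the pattern was not a common feature of the list. The 30 bases around each match are printed 5′ to 3′ on the strand of the gene, with the match in capitals, because they show the element beside the gene with the smallest adjusted p and beside a gene that did not pass the test.

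ASNS, chr7:97872458-97872487, minus strand, 68 bases before a RefSeq start: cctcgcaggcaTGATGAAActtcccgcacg

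MTHFD1L, chr6:150866346-150866375, plus strand, 129 bases before a RefSeq start: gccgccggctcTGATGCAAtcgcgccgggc

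ASNS rose 9.35-fold and MTHFD1L had a log2 fold change of -0.12, and any part of the sites in these values was not tested. Distances are from the RefSeq start whose window held the match. RefSeq lists other starts for both genes, and the GENCODE spans of both genes begin further upstream and include the matches. PHGDH, PSAT1, MTHFD2, CBS and CTH had no match in this window, which says only that these letters are not there. PSPH, SHMT2, ALDH1L2, SLC25A32, GGH, MTRR and PYCR1 had no promoter entry.

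A further 66 genes in 7 lists of neighbouring pathways were read in the same fit. These lists came from general knowledge and were also chosen with earlier results of these data known. Of the 63 tested, 46 were higher and 7 lower in 3D-primed cells, with a median log2 fold change of 0.37. Over all genes tested, 32.4% were called higher and 31.6% lower. Each list holds few genes, so its counts here and below are to be read beside these shares. The folate pool and glycine cleavage list had 10 of 11 genes higher and none lower (median 0.58). GCSH, a carrier protein of the mitochondrial glycine cleavage system, rose from 22.2 ± 1.54 to 50.1 ± 3.90 CPM (log2 fold change 1.18, edgeR adjusted p = 2.7e-07). GLDC, its decarboxylase, rose from 56.7 ± 7.49 to 110 ± 8.27 CPM (0.96, edgeR adjusted p = 7.4e-06). In purine ring synthesis, which takes up formyl groups from folate, 5 of 6 genes rose by less than 2-fold and PAICS did not pass, with log2 fold changes of 0.57 for PFAS, 0.48 for GART and 0.46 for ADSL. In choline and betaine oxidation, 4 of 5 rose, with 0.81 for SARDH, 0.53 for PIPOX and 0.29 for CHDH.

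**Figure D5:**
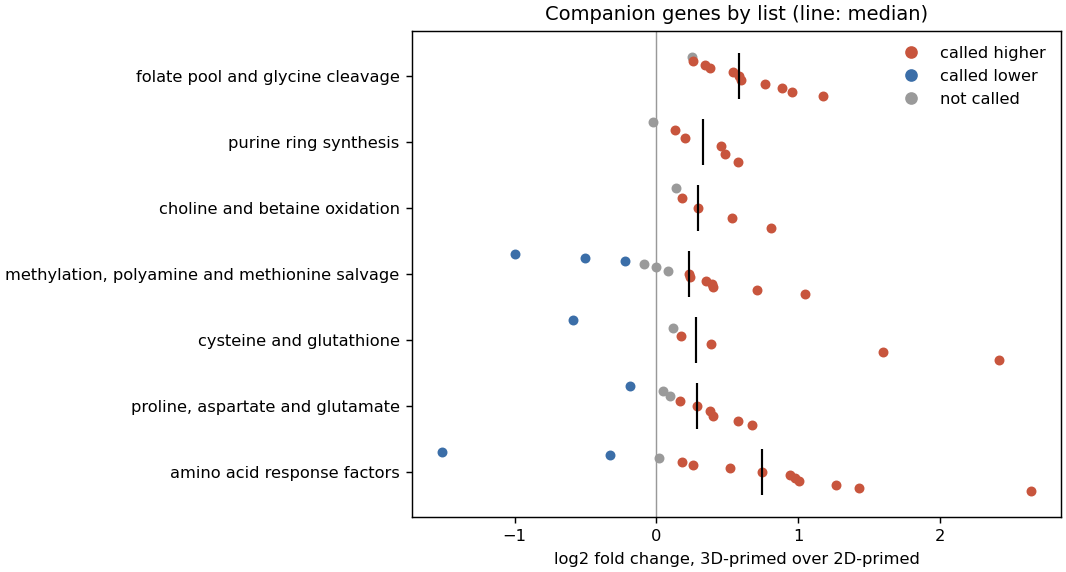
Log2 fold change (3D-primed over 2D-primed) of the 63 tested genes of 7 neighbouring lists, coloured by the edgeR call, with a line at each list's median. Medians run from 0.23 for methylation, polyamine and methionine salvage to 0.74 for the amino acid response factors, the latter list spanning -1.51 to 2.64.

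Genes that use S-adenosylmethionine or recover methionine were mixed, with 7 of 13 higher and 3 lower (median 0.23). GAMT, a large consumer of methyl groups in creatine synthesis, rose from 35.7 ± 4.49 to 73.7 ± 4.84 CPM (log2 fold change 1.05, edgeR adjusted p = 2.6e-06). AMD1, which decarboxylates S-adenosylmethionine for polyamine synthesis, fell from 263 ± 18.6 to 132 ± 6.74 CPM (-0.997, edgeR adjusted p = 2.7e-07), while ODC1, the ornithine decarboxylase of the same route, rose from 131 ± 7.36 to 214 ± 13.2 CPM (0.71, edgeR adjusted p = 2.0e-06). The cysteine and glutathione list had 4 of 6 genes higher and 1 lower (median 0.28). SLC7A11, the light chain of the cystine importer, rose 5.35-fold, from 17.0, 14.4, 18.1 and 15.7 CPM to 73.4, 91.3, 95.6 and 88.7 CPM (edgeR adjusted p = 3.5e-08). CDO1, which oxidises cysteine, rose from 2.34 ± 0.127 to 7.08 ± 0.373 CPM (log2 fold change 1.60, edgeR adjusted p = 3.8e-07). GCLC, the catalytic subunit for the first step of glutathione synthesis, fell from 163 ± 8.73 to 108 ± 6.61 CPM (-0.59, edgeR adjusted p = 6.1e-06). It was the only gene of this list called lower. GCLM and GSS, the other glutathione synthesis genes of the list, were called higher and are named after their values were seen. In the proline, aspartate and glutamate list 6 of 9 genes rose and 1 fell (median 0.28), with log2 fold changes of 0.67 for ASRGL1 and 0.58 for GOT1.

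Among 13 factors of the amino acid response and their targets, 10 were higher and 2 lower (median 0.74). CHAC1, a glutathione-degrading target, had only 1 to 2 counts in 2D-primed and 5 to 13 in 3D-primed libraries, a ratio of 6.75 with a wide 95% counting interval of 2.65 to 22.0 (edgeR adjusted p = 0.0012). ATF3 fell from 46.6 ± 6.14 to 16.3 ± 3.60 CPM (log2 fold change -1.51, edgeR adjusted p = 6.5e-06). TRIB3, a pseudokinase induced by ATF4, rose from 97.4 ± 3.99 to 262 ± 15.2 CPM (1.43, edgeR adjusted p = 2.1e-08). Of the remaining genes of this list, ATF4, DDIT3 and MYC are described here and were picked after their values were seen. The others are not described, and they include called genes with larger changes than ATF4. ATF4, the factor known to raise transcription of ASNS, PHGDH, PSAT1 and MTHFD2, measured 199, 179, 182 and 191 CPM in 2D-primed and 376, 369, 357 and 376 CPM in 3D-primed libraries. The groups were separate (log2 fold change 0.98, SE 0.042, edgeR adjusted p = 5.6e-08). Whether ATF4 acted on the genes of the list in these cells was not tested. DDIT3, known from the same stress response, went the other way, from 19.1 ± 0.605 to 15.1 ± 1.38 CPM (-0.33, edgeR adjusted p = 0.0018). MYC was the gene of this list that did not pass (edgeR adjusted p = 0.74).

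The pattern TGATGNAA lay in the promoters of 5 of the 51 genes of these lists with an entry (9.8%). They are printed in the same way, as they border genes that moved in both directions, and in CHAC1, GOT1 and AHCYL2 the match is on the reverse strand.

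CEBPG, chr19:33374060-33374089, plus strand, 42 bases before a RefSeq start: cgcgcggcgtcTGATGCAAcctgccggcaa

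CHAC1, chr15:40953251-40953280, plus strand, 209 bases before a RefSeq start: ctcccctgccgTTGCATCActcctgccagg

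ATF3, chr1:212565205-212565234, plus strand, 191 bases before a RefSeq start: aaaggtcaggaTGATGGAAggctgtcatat

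GOT1, chr10:99430804-99430833, minus strand, 198 bases before a RefSeq start: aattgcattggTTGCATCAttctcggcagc

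AHCYL2, chr7:129368232-129368261, plus strand, 137 bases before a RefSeq start: ggtgcagcactTTGCATCAgctctgatttt

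CEBPG, CHAC1, GOT1 and AHCYL2 were called higher and ATF3 lower, and any link between a match and a change was not tested. RefSeq lists further starts for AHCYL2, CEBPG and ATF3. The GENCODE spans of AHCYL2, CEBPG and CHAC1 begin upstream of their matches, and the AHCYL2 match lies well inside the gene, before an internal start.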

How the data were processed

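Poly(A) RNA of 8 HepG2 cultures was made into libraries with a directional kit and sequenced in read pairs. The authors deposited estimated counts for each gene and library, obtained by running Salmon against Ensembl transcripts of GRCh38 and summing over transcripts by tximport, whose length setting is not given in the sources used here. The values are whole numbers, not scaled to depth. Libraries held 21599630 to 27844077 counts, and chi-square per degree of freedom between replicates was 6.34 to 17.4, so none was a duplicate. Symbols came from GENCODE by Ensembl identifier (29661 of 38032). A minimum of 10 counts in 2 or more libraries was required, and genes were tested with glmQLFit and glmQLFTest in edgeR 4.0.16 (R 4.3.3) after TMM scaling, with the Benjamini-Hochberg method at 0.05. The biological coefficient of variation was 0.0934. Pairs of genes were compared by exact permutation tests in scipy 1.17.1. Groups came from the labels. The genes and lists were chosen with earlier results of these data known. All 31 genes are named, and from each neighbouring list the 3 called genes with the largest absolute change, except that the values of some single genes are left out here although they stayed in every count. Some further genes of these lists are named after their values were seen. Of the neighbouring lists, 66 genes were looked up and 63 passed the filter. On simulated data (13693 genes) edgeR called 80.4% of 107 log2 changes of 0.5 and 98.9% of 93 log2 changes of 1. Of its calls, 6.81% were unchanged genes. The simulation gave every gene the same biological coefficient of variation and changed far fewer genes than were called in these data. Its rates may therefore not hold here, above all for low or variable genes such as ALDH1L2, CHAC1 and SHMT1. Alternatives were DESeq2 1.42.0, 3 other scalings, 2 other filters, leaving out each library and the replicate number as a block. Drug, protein and imaging experiments are not analysed here.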

Additional observations from a re-analysis of the deposited data

Results flagged for a closer look

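In 3 of the 60 groups of 4 libraries examined, 1 library stood apart from the others of its group, where chance gives about 1 in 20. ALDH1L1 measured 20.3 CPM in 2D-primed replicate 3 and 24.5 to 25.1 CPM in the other 2D-primed libraries. CTH measured 25.7 CPM in 3D-primed replicate 3 and 23.5 to 23.8 CPM in the other 3D-primed libraries. PYCR1 measured 231 CPM in 2D-primed replicate 2 and 209 to 213 CPM in the other 2D-primed libraries. The calls of these 3 genes were the same in every alternative, including those without the library concerned.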

How the results depend on the processing

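Across 15 alternatives, 432 of 450 calls of the 30 genes were the same as reported, 16 were lost, 2 were gained and 0 reversed in direction, and 25 genes kept their call throughout. The exceptions were TYMS, BHMT, MTHFD1, MTHFD1L and BHMT2. Between 17 and 19 genes were called higher. The number called lower was 3 with upper-quartile scaling and 3 with total counts, where TYMS and BHMT were lost, and 3 to 5 when single libraries were left out. Without 2D-primed replicate 2 or 4 it was 3. Over all genes, 8357 to 9070 were called, and the scalings moved the median log2 fold change by 0.05 at most. Libraries with the same replicate number did not deviate together (correlations -0.0433 to 0.0574), so the numbers were not taken as pairs. With the replicate block, 18 of the 30 genes were higher, 4 lower and 8490 genes were called in all, BHMT being lost (edgeR adjusted p = 0.056). Summing SHMT1 with the unnamed identifier, an alternative chosen after seeing the data, brought it past the threshold (log2 fold change 0.18). The planned sum of CBS with its near-identical copy was not run, because the tables used here do not pair that copy with an identifier of the files. Depth limits ALDH1L2 and CHAC1, whose 2D-primed libraries held 3 to 11 and 1 to 2 counts.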
